A study of Mus musculus with 6 samples.

Results

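A set of 9 surface markers was followed, by the transcripts of their genes, in γδ thymocytes, thymic T cell precursors with a γδ T cell receptor (TCR). The genes *Cd24a*, *Cd44*, *Cd5*, *Cd6*, *Cd7*, *Cd9*, *Cd69*, *Cd93* and *Slc29a1* were chosen by name, as molecules whose presence on the cell surface changes while thymocytes mature, and make up 9 of the 41195 genes in the tables. RNA-seq libraries had been made from 2 genotypes with 3 libraries each. The *Rag1Cre-Nfatc1fl/fl* mice carried *Nfatc1* alleles with exon 3 between loxP sites together with Cre recombinase made from the *Rag1* locus, which is active in early double-negative thymocytes. The *Nfatc1fl/fl* control mice carried the same floxed alleles without Cre. Mice were 4 to 6 weeks old, on a C57/B6 background, and a magnetic kit for TCRγ/δ+ cells was used to isolate the γδ thymocytes. The comparison addressed how loss of the transcription factor NFATc1 at this stage changes the surface phenotype and maturation of γδ thymocytes.

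A γδ thymocyte that has just made its receptor carries much CD24 and loses it as it matures, while CD73 appears on cells committed to the γδ lineage and CD44 marks cells that have taken on effector functions. The strength of the signal through the TCR sets the level of CD5 on thymocytes and, in mice, the related receptor CD6 follows it. CD69 appears within hours of TCR signalling and holds cells in the tissue by drawing the egress receptor S1PR1 inside the cell. These rules describe proteins on the cell surface, and only their transcripts were measured here.

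The libraries held 20734771 to 22638531 gene reads, and 13185 genes passed the filter on low counts and were tested, all 9 markers among them. A call needed an adjusted p under 0.01 (edgeR quasi-likelihood test, Benjamini-Hochberg over all tested genes) together with a log2 fold change beyond 0.5 in either direction. The study used the same thresholds. Of all tested genes 853 were called higher and 463 lower in *Rag1Cre-Nfatc1fl/fl* libraries (700 and 578 when scaled by library size alone). *Nfatc1* itself (chromosome 18, GRCm38) had 367, 437 and 310 CPM (counts scaled to library size with TMM factors) in the libraries labelled *Rag1Cre-Nfatc1fl/fl*, against 197, 208 and 205 CPM in the control libraries. Its reads come from the whole gene and only exon 3 is deleted, so the deletion and the labels cannot be checked by them. *Rag1Cre-Nfatc1fl/fl* replicate 3 stood apart from the others on the second principal component (16.0% of the variance), and ribosomal protein genes took 16.2% of its reads, against 11.8% and 12.5% in replicates 1 and 2 and 9.01% to 9.74% in the control libraries. Whether each library came from its own animal is not said in the labels, so the p-values cover the spread among these 6 samples only, and that spread may be technical.

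Of the 9 markers 7 were called, 5 higher and 2 lower in *Rag1Cre-Nfatc1fl/fl* libraries. Highest stood *Cd9* with a 2.51-fold difference, and lowest *Cd93* and *Cd24a*, which were 2.80-fold and 2.04-fold higher in the control. *Cd7*, *Cd5*, *Slc29a1* and *Cd6* were 1.48-fold to 1.69-fold higher in *Rag1Cre-Nfatc1fl/fl* libraries. *Cd44* and *Cd69* did not pass. Over all tested genes 6.47% were called higher, 3.51% lower and 9.98% in either direction, and the median log2 fold change was 0.57 over the 9 markers, against -0.0069 over all tested genes. The markers were chosen with earlier results of these data known, so their count beside these shares is a description only. Without *Rag1Cre-Nfatc1fl/fl* replicate 3 the counts were again 5 higher and 2 lower. Each marker had CPM values that did not overlap between the genotypes, 6 with higher and 3 with lower values in *Rag1Cre-Nfatc1fl/fl* libraries, and the same held for 23.3% and 23.4% of all tested genes (46.7% in either direction). In bulk RNA, fewer cells of a type and less RNA per cell cannot be told apart.

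**Figure D1:**
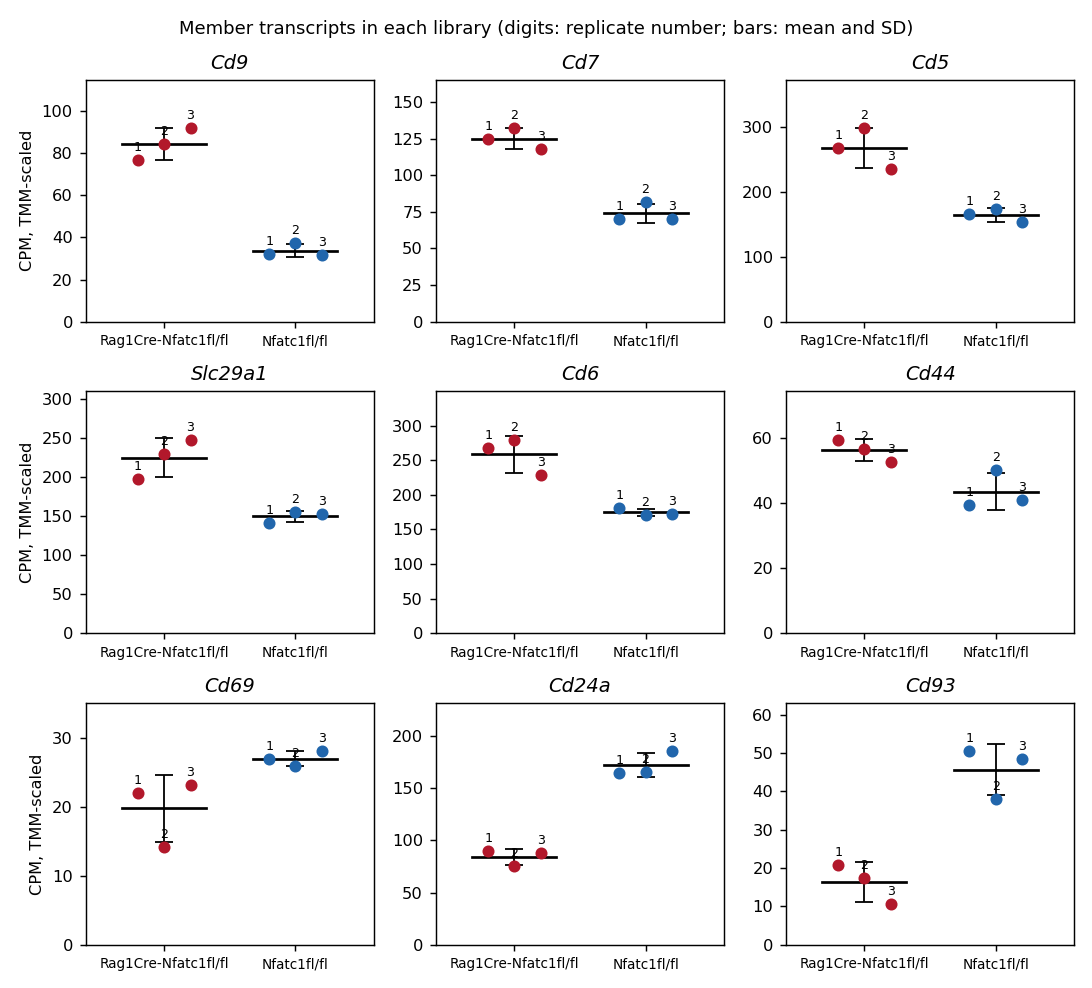
CPM of each marker in the 3 Rag1Cre-Nfatc1fl/fl libraries (red, left) and the 3 Nfatc1fl/fl control libraries (blue, right), with mean and SD. Every panel shows 2 groups of points that do not overlap; the gap is widest relative to the level in *Cd9*, *Cd24a* and *Cd93*, and narrowest in *Cd44* and *Cd69*.

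*Cd24a* (chromosome 10, 43578284 to 43584265, plus strand; all coordinates are GRCm38) encodes a small glycoprotein tied to the membrane by a lipid anchor. It had 89.4, 75.4 and 88.0 CPM in *Rag1Cre-Nfatc1fl/fl* replicates 1 to 3, against 165, 166 and 185 CPM in control replicates 1 to 3. All *Rag1Cre-Nfatc1fl/fl* libraries lay below all control libraries, with a gap wider than the range within either genotype. The transcript fell by 1.03 on the log2 scale (SE 0.10, edgeR adjusted p = 0.000467). All 19 alternative analyses called it lower, with log2 fold changes of -1.19 to -0.96. Some of them only loosen a threshold, and these could not lose the call.

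*Cd93* (chromosome 2, 148436640 to 148443563, minus strand) encodes a receptor with a C-type lectin domain that is best known from endothelium, haematopoietic progenitors and immature B cells. Its values were 20.9, 17.4 and 10.6 CPM in *Rag1Cre-Nfatc1fl/fl* libraries, against 50.5, 38.1 and 48.6 CPM in control libraries. Replicate 3 was the lowest *Rag1Cre-Nfatc1fl/fl* library, 0.84 below the mean of replicates 1 and 2 on the log2 scale, and the SD of the log2 values within that genotype (0.50) was the largest among the 9 markers. The log2 fold change was -1.48 (SE 0.233, edgeR adjusted p = 0.00367), the lowest of the 9. The call was lost without control replicate 1 or 3 (adjusted p = 0.0212 and 0.0211) and without *Rag1Cre-Nfatc1fl/fl* replicate 2 (0.0162), always with a log2 fold change of -1.25 or lower. On TPM values the fold was as large, at -1.52 with a pseudocount of 1, but the limma adjusted p was 0.0200.

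*Cd9* (chromosome 6, 125460266 to 125494791, minus strand) encodes a tetraspanin, a membrane protein that gathers integrins and other receptors into patches. The libraries held 76.5, 84.2 and 91.9 CPM in *Rag1Cre-Nfatc1fl/fl* replicates 1 to 3, against 32.1, 37.2 and 31.5 CPM in control replicates 1 to 3. The gap between the genotypes was again wider than the range within either. *Cd9* rose by 1.33 on the log2 scale (SE 0.108, edgeR adjusted p = 0.000201). Its log2 fold change stayed between 1.17 and 1.41 and was called in all 19 alternatives. The antisense gene *Gm28809* lies within *Cd9* on the other strand, and the library kit does not mark strand, so the reads of both cannot be told apart. *Gm28809* was counted with 126 reads in the *Rag1Cre-Nfatc1fl/fl* libraries together and 88 in the control libraries, against 1667 to 1848 and 707 to 845 reads per library for *Cd9*.

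Ratios of reads within a library need no scaling between libraries. For each read of *Cd9* there were 1.17, 0.896 and 0.957 reads of *Cd24a* in *Rag1Cre-Nfatc1fl/fl* libraries, against 5.13, 4.46 and 5.89 in control libraries. *Cd93* gave 0.274, 0.206 and 0.116 reads for each read of *Cd9* in *Rag1Cre-Nfatc1fl/fl* libraries, against 1.57, 1.02 and 1.54 in control libraries. Against *Nt5e*, the gene of CD73, the ratio of *Cd24a* was 1.38, 0.933 and 1.78 in *Rag1Cre-Nfatc1fl/fl* libraries and 5.27, 4.88 and 6.51 in control libraries. None of these ratios overlapped between the genotypes, which follows from the choice of genes called in opposite directions. With 3 against 3 libraries an exact permutation test cannot go below p = 0.1, and none was used for them.

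*Cd5* and *Cd6* lie side by side on chromosome 19 (10718143 to 10738974 and 10789341 to 10830058, both on the minus strand) and encode scavenger receptor cysteine-rich receptors that dampen TCR signals. *Cd5* had 268, 298 and 236 CPM in *Rag1Cre-Nfatc1fl/fl* libraries, against 166, 173 and 153 CPM in control libraries. *Cd6* was close to it, with 268, 279.8 and 229 CPM in *Rag1Cre-Nfatc1fl/fl* libraries, against 181, 171 and 172 CPM in control libraries. In both genes replicate 3 was the lowest *Rag1Cre-Nfatc1fl/fl* library, by 0.26 on the log2 scale below the mean of replicates 1 and 2, and still above every control library. *Cd5* rose by 0.70 (SE 0.108, edgeR adjusted p = 0.0033) and *Cd6* by 0.57 (SE 0.0978, adjusted p = 0.00556) on the log2 scale. The ratio of *Cd5* to *Cd6* reads was 1.03 ± 0.0331 in *Rag1Cre-Nfatc1fl/fl* libraries and 0.940 ± 0.0659 in control libraries (SD, n = 3 each).

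The calls of *Cd5* and *Cd6* rested on all libraries but 1. Without 1 of the 3 control libraries the edgeR adjusted p was 0.0158 to 0.0246 for *Cd5* and 0.0279 to 0.0359 for *Cd6*. Without *Rag1Cre-Nfatc1fl/fl* replicate 1 it was 0.0110 for *Cd5* and 0.0188 for *Cd6*, and without replicate 2 it was 0.0138 and 0.0249 for the same genes. Only without *Rag1Cre-Nfatc1fl/fl* replicate 3 did both keep their calls, with log2 fold changes of 0.80 and 0.66. With library size alone, which moved the median of all tested genes to -0.11, the values were 0.61 for *Cd5* (adjusted p = 0.0120) and 0.47 for *Cd6* (adjusted p = 0.0244).

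*Cd7* (chromosome 11, 121036747 to 121039418, minus strand) encodes an immunoglobulin superfamily receptor of T and NK cells. It had 125, 132 and 118 CPM in *Rag1Cre-Nfatc1fl/fl* libraries, against 70.3, 81.5 and 70.2 CPM in control libraries. Both groups were tight, and the lowest *Rag1Cre-Nfatc1fl/fl* library was well above the highest control library. *Cd7* rose by 0.76 on the log2 scale (SE 0.0962, edgeR adjusted p = 0.00149), and lost its call without control replicate 1 or 3 (adjusted p = 0.0137 and 0.0138, log2 fold changes of 0.72 each). The antisense gene *Gm11775*, which spans it, was counted with 42 reads in *Rag1Cre-Nfatc1fl/fl* libraries and 41 in control libraries.

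*Slc29a1* (chromosome 17, 45585200 to 45599606, minus strand) encodes ENT1, a transporter that lets adenosine and other nucleosides cross the membrane. It had 198, 229 and 248 CPM in *Rag1Cre-Nfatc1fl/fl* libraries, against 141, 155 and 153 CPM in control libraries. Here replicate 3 was the highest *Rag1Cre-Nfatc1fl/fl* library, unlike in *Cd5* and *Cd6*, and the groups were apart. The log2 fold change was 0.59 (SE 0.103, edgeR adjusted p = 0.00599). It lost its call without any 1 of the control libraries (adjusted p = 0.0289 to 0.0379) and without *Rag1Cre-Nfatc1fl/fl* replicate 2 (adjusted p = 0.0260), and with library size alone it was 0.48, under the threshold on the fold.

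*Cd44* and *Cd69* did not pass the test. *Cd44* (chromosome 2, 102811141 to 102901665, minus strand), the receptor for hyaluronan, had 59.4, 56.7 and 52.6 CPM in *Rag1Cre-Nfatc1fl/fl* libraries, against 39.5, 50.05 and 40.9 CPM in control libraries. Its log2 fold change was 0.37 (SE 0.113, edgeR adjusted p = 0.0491), and 0.22 to 0.49 over the alternatives, none of which called it. *Cd69* (chromosome 6, 129267325 to 129275436, minus strand), an early activation antigen with a C-type lectin domain, had 22.03, 14.1 and 23.1 CPM in *Rag1Cre-Nfatc1fl/fl* libraries, against 26.9, 25.9 and 28.0 CPM in control libraries. Its log2 fold change was -0.45 (SE 0.177, edgeR adjusted p = 0.103). Replicate 2 was the lowest of the *Rag1Cre-Nfatc1fl/fl* libraries for *Cd69*, and without it the log2 fold change was -0.26.

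**Figure D2:**
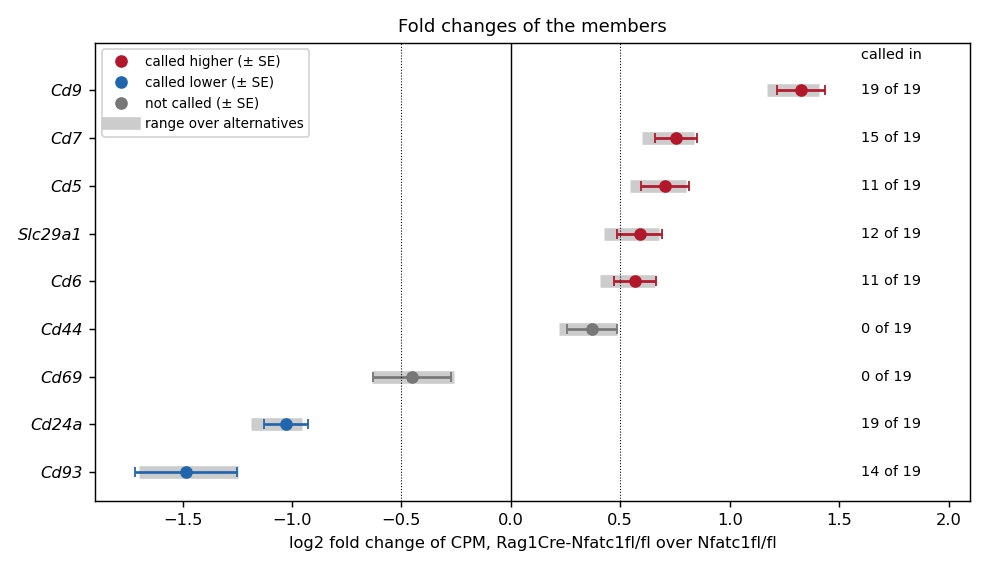
Log2 fold change of CPM, Rag1Cre-Nfatc1fl/fl over Nfatc1fl/fl, for each marker (points; bars are the SE of the edgeR fit), with the range over the 19 alternative analyses in grey and the number of them that called the gene at right. Dotted lines mark the threshold of 0.5 in either direction. The grey ranges of *Cd9*, *Cd7*, *Cd5*, *Cd24a* and *Cd93* lie wholly beyond it, and no range crosses 0.

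The levels of the markers were compared with each other in TPM, a share of all transcripts that corrects for gene length. In *Rag1Cre-Nfatc1fl/fl* libraries the order was *Cd5* (310 ± 66.5 TPM), *Cd7* (266 ± 42.9), *Cd6* (183 ± 38.0), *Slc29a1* (134 ± 9.25), *Cd9* (96.0 ± 4.12), *Cd24a* (78.2 ± 10.2), *Cd44* (18.2 ± 3.63), *Cd69* (7.18 ± 1.70) and *Cd93* (6.01 ± 2.47 TPM; SD, n = 3 each). In control libraries it was *Cd5* (209 ± 15.5 TPM), *Cd24a* (178 ± 14.5), *Cd7* (174 ± 20.02), *Cd6* (136 ± 1.10), *Slc29a1* (99.3 ± 7.69), *Cd9* (42.2 ± 4.94), *Cd93* (18.2 ± 2.22), *Cd44* (15.4 ± 2.43) and *Cd69* (11.0 ± 0.518 TPM; SD, n = 3 each). *Cd24a* thus stood in sixth place in *Rag1Cre-Nfatc1fl/fl* libraries and in second place in control libraries, and *Cd93* in last and in seventh place. Among neighbours in the order, the libraries of *Cd5* and *Cd7*, of *Cd6* and *Slc29a1* and of *Cd69* and *Cd93* overlapped in *Rag1Cre-Nfatc1fl/fl* libraries, and those of *Cd24a* and *Cd7* and of *Cd93* and *Cd44* in control libraries. *Cd5* was above 97.3% of all tested genes in *Rag1Cre-Nfatc1fl/fl* libraries and 95.6% in control libraries, while *Cd93* was above 37.4% and 58.6% of them.

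**Figure D3:**
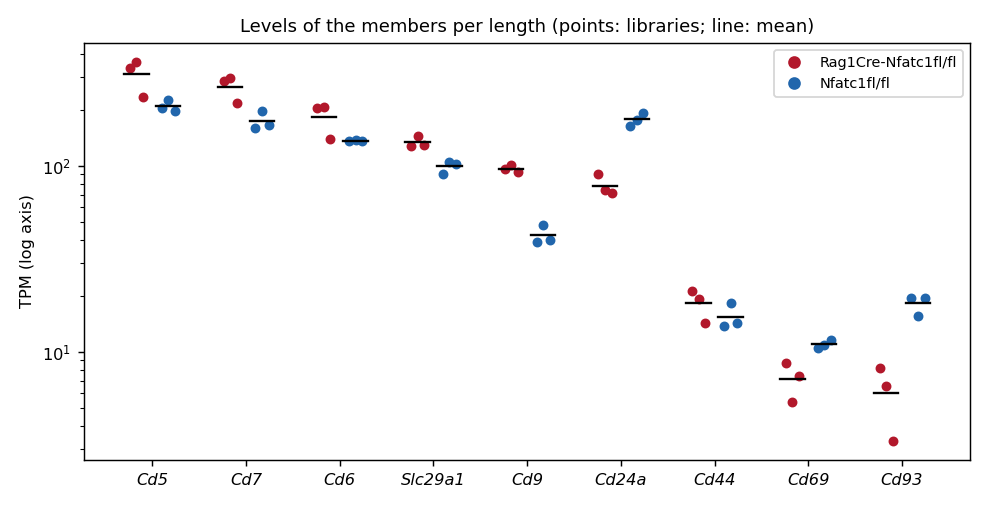
TPM of each marker (log axis) in the 3 Rag1Cre-Nfatc1fl/fl libraries (red) and the 3 control libraries (blue), in order of the mean of the Rag1Cre-Nfatc1fl/fl libraries, with the mean as a line. *Cd24a* and *Cd93* lie lower in Rag1Cre-Nfatc1fl/fl than in control libraries, and replicate 3 of Rag1Cre-Nfatc1fl/fl *Cd6* (139 TPM) lies just above the control range (135 to 137 TPM).

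On the TPM scale the calls of the moderate changes and of *Cd93* were not kept. *Cd44* overlapped between the genotypes (14.2 to 21.3 TPM in *Rag1Cre-Nfatc1fl/fl* libraries and 13.7 to 18.2 TPM in control libraries), while the other 8 markers did not, as held for 45.9% of 13127 tested genes with an exon length (14.6% with higher and 31.3% with lower values in *Rag1Cre-Nfatc1fl/fl* libraries). With limma on log2(TPM + 1) only *Cd9* was called higher and only *Cd24a* lower. On that scale the median of all tested genes lay at -0.13, and *Cd5* was at 0.55, *Cd6* at 0.41, *Cd7* at 0.60 and *Slc29a1* at 0.43. The share of reads taken by ribosomal protein genes moved with the genotypes as given above, and its part in the TPM fold changes was not tested.

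Intron reads, which come largely from unspliced RNA, were few for several markers. *Cd44* had the most, with 331 in the *Rag1Cre-Nfatc1fl/fl* libraries together and 306 in the control libraries together. *Cd24a* had 7, 11 and 6 intron reads in *Rag1Cre-Nfatc1fl/fl* libraries, against 16, 11 and 11 in control libraries, and *Cd9* had 34, 73 and 32, against 31, 34 and 27 in control libraries. In the test on intron reads edgeR called 3.78% of 6158 tested genes and none of the 6 markers it could test (2 had an unadjusted p under 0.05, and neither DESeq2 nor limma-voom called any), and *Cd7*, *Cd69* and *Cd93* did not pass its filter. *Cd9* was at 0.79 on the log2 scale (SE 0.286, edgeR adjusted p = 0.115) and *Cd5* at 0.54 (SE 0.240, adjusted p = 0.208). The exon change was not shown to differ from the intron change for any of these 6 markers (edgeR interaction test, 0 with an unadjusted p under 0.05), and 0.366% of 5737 tested genes were called for such a difference. The largest share of intron reads among all gene reads was that of *Cd44*, with 9.36% in *Rag1Cre-Nfatc1fl/fl* libraries and 10.3% in control libraries.

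Promoters, from 250 bases before to 50 bases after an annotated start, were found for 4 of the 9 markers in RefSeq (GRCm38.p6): 1 each for *Cd5*, *Cd9* and *Cd44* and 8 for *Slc29a1*. The motifs searched, on both strands, were the NFAT core TGGAAA, the E box CAGGTG bound by E proteins, the EGR motif GCGTGGG and the GT box CCACCC of KLF factors. Of 32851 mouse promoters of this length 21.4% held the NFAT core, 20.2% the E box, 5.04% the EGR motif and 31.5% the GT box. Among the 11 promoters of the markers 3 held the NFAT core (1 of *Cd5* and 2 of *Slc29a1*), 6 the E box, 2 the EGR motif and 5 the GT box. As 8 of the 11 were of *Slc29a1*, some of them overlapping, these counts came mostly from that gene. The promoters of 3 markers that rose are shown because they are the sequence next to the gene starts of that group; for *Slc29a1* it is the start nearest to the 5′ end of the gene in the tables. Each is written 5′ to 3′ on the minus strand, which is the strand of the gene. In capitals are the E box (CAGGTG or CACCTG) and the NFAT core (TTTCCA, the reverse complement of TGGAAA).
*Cd5*, chr19:10738925-10739224: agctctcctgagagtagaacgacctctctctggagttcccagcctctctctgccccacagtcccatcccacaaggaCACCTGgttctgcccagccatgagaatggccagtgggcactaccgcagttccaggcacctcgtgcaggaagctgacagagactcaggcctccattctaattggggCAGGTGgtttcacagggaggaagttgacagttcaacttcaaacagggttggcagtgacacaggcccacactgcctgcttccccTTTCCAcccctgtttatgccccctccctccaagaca
*Cd9*, chr6:125494711-125495010: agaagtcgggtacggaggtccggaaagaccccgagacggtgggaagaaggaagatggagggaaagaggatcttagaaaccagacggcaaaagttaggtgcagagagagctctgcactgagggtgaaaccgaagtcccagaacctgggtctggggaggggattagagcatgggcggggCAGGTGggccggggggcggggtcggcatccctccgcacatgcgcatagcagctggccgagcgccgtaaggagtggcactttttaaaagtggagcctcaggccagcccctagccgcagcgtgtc
*Slc29a1*, chr17:45599569-45599868: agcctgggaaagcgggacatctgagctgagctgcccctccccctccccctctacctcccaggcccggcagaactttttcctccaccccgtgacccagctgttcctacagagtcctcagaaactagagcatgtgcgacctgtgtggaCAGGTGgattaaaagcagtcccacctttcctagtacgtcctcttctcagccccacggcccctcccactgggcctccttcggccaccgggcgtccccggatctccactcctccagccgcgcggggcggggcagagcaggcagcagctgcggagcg
The NFAT core of *Cd5* begins 14 bases after the start site and overlaps a GT box, and its E boxes lie 174 and 69 bases before it. In *Cd9* 1 E box lies 73 bases before the start, and in *Slc29a1* 1 lies 104 bases before it. These are matches of letters, and no binding was measured in these libraries.

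Other genes lie close to some markers. Within 100 kb of the 9 markers 28 other genes were tested, of which 2 were called higher and 2 lower. Over all tested genes 6.47% were called higher and 3.51% lower. The noncoding gene *A430093F15Rik* lies between *Cd5* and *Cd6* on the other strand, 1973 bases from *Cd5* and 3298 bases from *Cd6*, and it had 55.0 CPM in *Rag1Cre-Nfatc1fl/fl* libraries, against 17.9 CPM in control libraries. Its log2 fold change was 1.62 (SE 0.115, edgeR adjusted p = 0.000102), larger than that of either marker beside it. *Slc16a3*, which encodes a lactate transporter and lies 75879 bases from *Cd7*, rose by 1.04 (adjusted p = 0.000563). *Tmem151b*, 35523 bases from *Slc29a1*, fell by 1.31 (adjusted p = 0.000386), against a rise of *Slc29a1* itself, and the lectin gene *Clec12a*, 67255 bases from *Cd69*, fell by 1.01 (adjusted p = 0.00964).

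The profiles of the markers over the 6 libraries were compared by the root mean square difference of their log2 CPM values, each centred on its own mean. Among the markers *Cd5* and *Cd7* were closest (0.0735), followed by *Cd5* and *Cd6* (0.0936), and *Cd9* and *Cd93* farthest (1.48). Outside the markers, 6796 genes averaging 20 CPM or more were searched. Nearest to *Cd24a* were *Ccr9* (0.0429), the chemokine receptor of thymocytes, *Wls* (0.0579), which carries Wnt proteins to the surface, and *Klf3* (0.0618), a transcription factor. *Cd9* was nearest to *Cxcr6* (0.0677), a chemokine receptor, *Rnh1* (0.0697), a ribonuclease inhibitor, and *Ccng1* (0.0768), a cyclin. For *Cd93* they were *Bcl2* (0.179), an inhibitor of cell death, *N4bp2* (0.194) and *Etv5* (0.201), an ETS transcription factor. *Cd5* had *Cyfip1* (0.0181), *Bin1* (0.0382) and *Pitpnm2* (0.0477), *Cd6* had *Atad3a* (0.0401), *Tapbp* (0.0448) and *Tsr1* (0.0453), *Cd7* had *Lpcat1* (0.0177), *Snx14* (0.0255) and *Rab4a* (0.0438), and *Slc29a1* had *Klf10* (0.0272), *Fkbp1a* (0.0323) and *Acaa2* (0.0368). With 6 libraries in 2 genotypes, nearness of profiles is largely nearness of fold changes.

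Tetraspanins, the family of *Cd9*, were followed with their partner proteins. Of 16 such genes, all tested, 5 were called higher, 2 lower and 9 did not pass, with a median log2 fold change of 0.42. The shares of all tested genes, for this list and those below, were 6.47% called higher and 3.51% called lower. *Tspan4* had 32.4, 36.4 and 51.8 CPM in *Rag1Cre-Nfatc1fl/fl* libraries, against 11.8, 10.5 and 8.90 CPM in control libraries, and so rose by 1.95 on the log2 scale (SE 0.196, edgeR adjusted p = 0.000534). *Tspan32* rose by 1.03, *Tspan5* by 0.80, *Cd81*, a partner of CD9, by 0.63 and *Igsf8*, an immunoglobulin superfamily protein that binds CD9 and CD81, by 0.53. In the other direction *Tspan2* fell to 3.12 ± 0.652 CPM in *Rag1Cre-Nfatc1fl/fl* libraries, against 9.45 ± 1.58 CPM in control libraries, and *Tspan13* to 114 ± 17.5, against 211 ± 11.3 CPM (SD, n = 3 each). *Cd53* and *Cd82*, the most abundant of the family, were at 0.44 each and did not pass (adjusted p = 0.0444 and 0.0198). With 1 library left out, 2 to 4 of these genes were called higher and 0 to 4 lower, 0 of them lower without control replicate 1 or 3.

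Among the other surface molecules of thymocyte maturation 30 of 30 genes were tested, and 8 were higher, 5 lower and 17 did not pass, with a median of 0.016. *Nt5e*, whose product CD73 makes adenosine outside the cell, had 64.6, 80.8 and 49.5 CPM in *Rag1Cre-Nfatc1fl/fl* libraries, against 31.3, 34.0 and 28.4 CPM in control libraries (log2 fold change 1.06, SE 0.173, edgeR adjusted p = 0.00452). Its *Rag1Cre-Nfatc1fl/fl* values spread widely but all lay above the controls, and the call held only without *Rag1Cre-Nfatc1fl/fl* replicate 3 (adjusted p = 0.0113 to 0.0283 without any other library). *Cd28*, the costimulatory receptor, rose by 0.97, *Cd160*, a receptor for HVEM, by 0.82, *Slamf6* by 0.81, the interleukin 7 receptor gene *Il7r* by 0.98, *Cd38* by 1.24, *Ly6c2* by 0.97 and the class I gene *H2-K1* by 0.70. *Ccr9* fell by 1.02, *Il2ra* (CD25) by 1.19, *Thy1* by 0.61 and *Cd27* by 0.56. *Ptprc*, the gene of CD45, of which CD45RB is a splice form that gene counts do not resolve, was at -0.13 (adjusted p = 0.715). Left-out libraries moved these counts to 2 to 11 higher and 2 to 7 lower, the most without *Rag1Cre-Nfatc1fl/fl* replicate 3 and the fewest higher without control replicate 2 or 3. With all libraries DESeq2 called 17 of these 30 genes and limma-voom 13.

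The partners of CD69 and the egress genes had 7 members, 5 of them tested. *Klf2*, the transcription factor that drives *S1pr1*, had 76.4, 62.6 and 87.9 CPM in *Rag1Cre-Nfatc1fl/fl* libraries, against 135, 151 and 145 CPM in control libraries, and fell by 0.93 on the log2 scale (SE 0.129, edgeR adjusted p = 0.00228). It lost its call without any 1 control library (adjusted p = 0.0113 to 0.0149). *S1pr1* had 85.7, 76.6 and 99.7 CPM in *Rag1Cre-Nfatc1fl/fl* libraries, against 115, 129.9 and 134 CPM in control libraries, and at -0.53 it did not pass (adjusted p = 0.0152). *S1pr4*, *Sgpl1* and *Ccr7* did not pass either, and the list's median was -0.31. DESeq2 called 2 genes of this list and limma-voom 1, and without *Rag1Cre-Nfatc1fl/fl* replicate 3 edgeR called 2 lower. *Sphk1* had 0 reads in every library.

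Nucleoside transport and adenosine genes, the setting of *Slc29a1*, had 14 members, of which 11 were tested, 2 rose and 0 fell, with a median of 0.15. The 2 were *Nt5e* and *Slc28a2*, a sodium-coupled nucleoside carrier with 39.4 ± 5.60 CPM in *Rag1Cre-Nfatc1fl/fl* libraries and 23.5 ± 2.37 CPM in control libraries (SD, n = 3 each; log2 fold change 0.75, edgeR adjusted p = 0.00587). The other equilibrative transporters *Slc29a2*, *Slc29a3* and *Slc29a4* did not pass, nor did *Ada*, which breaks down adenosine (-0.51, adjusted p = 0.0164). *Adora2a*, the adenosine receptor of T cells, had an adjusted p of 0.00777 but a log2 fold change of -0.43, under the threshold. Leaving out any 1 control library or *Rag1Cre-Nfatc1fl/fl* replicate 2 ended both calls (edgeR adjusted p of 0.0113 to 0.0283 for *Nt5e* and 0.0155 to 0.0339 for *Slc28a2*). With all libraries DESeq2 called 3 genes of this list and limma-voom 2.

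Genes around CD5 and CD6 numbered 9, of which 8 were tested, 1 rose and 0 fell, with a median of 0.17; the 1 was *Tspan32* again, a tetraspanin of blood cells that stands in both lists. *Ptpn6*, which encodes the phosphatase SHP-1, was at 0.53 (edgeR adjusted p = 0.0113), *Cblb*, a ubiquitin ligase, at -0.49 (adjusted p = 0.0314) and the adaptor genes *Lcp2* and *Vav1* at 0.11 and -0.29. *Alcam*, the CD6 ligand, had 3.12 CPM in *Rag1Cre-Nfatc1fl/fl* libraries and 5.13 CPM in control libraries and did not pass. DESeq2 called 2 genes around CD5 and CD6, and limma-voom 1. None of 7 tested genes among 12 CD44 ligands, linkers and proteases was called by edgeR, DESeq2 or limma-voom (1 had an unadjusted p under 0.05), with a median of -0.12; *Msn* and *Ezr*, which tie CD44 to actin, were at 0.03 and -0.12. Among the CD24 and selectin partners *Selplg* was at -0.30 (adjusted p = 0.0579), and *Siglecg* and *Selp* were not tested. The 2 CD7 ligand genes were not tested, with at most 0.137 CPM in any library, and of 5 CD93 relatives and ligands *Thbd* and *Mmrn2* were tested and not called by any of the 3 tools (0 had an unadjusted p under 0.05), at 1.06 CPM or less in each library.

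**Figure D4:**
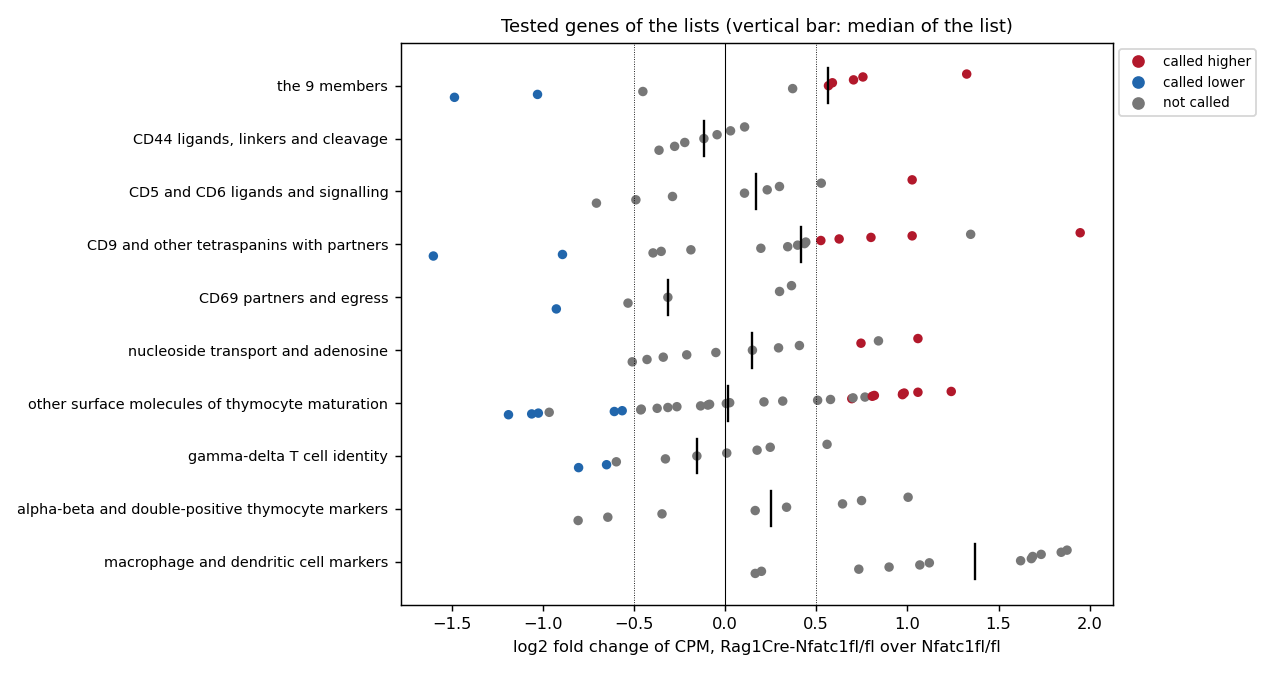
Log2 fold changes of CPM, Rag1Cre-Nfatc1fl/fl over Nfatc1fl/fl, for the 9 markers and for the tested genes of the lists with at least 5 of them (points; red called higher, blue called lower, grey not called), with each list's median as a bar. The 9 markers and the tetraspanins have medians of 0.57 and 0.42, and the macrophage genes lie highest, at a median of 1.37, with none called.

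The list of γδ T cell identity genes held TCRγ and TCRδ constant regions together with genes that other T cells also express, such as *Cd3e* and *Cd3g*. It therefore does not measure the purity of the γδ thymocytes. Of its 9 genes, all tested, 0 were higher and 2 lower, both of them TCR constant regions. *Trdc*, the constant region of the TCRδ chain, had 115 ± 18.5 CPM in *Rag1Cre-Nfatc1fl/fl* libraries and 200.1 ± 6.45 CPM in control libraries. *Tcrg-C1* had 209 ± 13.7 and 328 ± 14.4 CPM in turn (SD, n = 3 each). Both calls were lost without any 1 control library (edgeR adjusted p = 0.0104 to 0.0231) and without *Rag1Cre-Nfatc1fl/fl* replicate 2 (0.0117 and 0.0111). *Cd3e* and *Cd3g* did not pass (-0.15 and 0.18). DESeq2 called 4 of the 9 genes and limma-voom 2. Transcripts of αβ and double-positive thymocytes, which carry much CD24, were present too, and of 8 such genes, all tested, edgeR called none (2 had an unadjusted p under 0.05, and DESeq2 called 1), although 3 were called lower without *Rag1Cre-Nfatc1fl/fl* replicate 3 and 1 without replicate 1. *Cd8a* had 69.3, 31.4 and 136 CPM in *Rag1Cre-Nfatc1fl/fl* libraries, against 55.1, 50.8 and 45.2 CPM in control libraries, so that replicates 1 and 3 were above and replicate 2 below all controls. *Dntt*, the terminal transferase of developing lymphocytes, had 169.6, 115 and 231 CPM in *Rag1Cre-Nfatc1fl/fl* libraries, against 247, 269 and 289 CPM in control libraries (adjusted p = 0.0733), and *Arpp21* 30.0, 18.8 and 23.4 CPM, against 48.1, 38.4 and 39.7 CPM (adjusted p = 0.0145). These 2 genes were below the controls in all 3 libraries, and the other 6 overlapped between the genotypes. Over all tested genes 23.4% had lower CPM values without overlap, so this count is a description only. The median log2 fold change over the 8 genes was 0.25. The summed level of the 8 genes was 225 to 514 TPM in *Rag1Cre-Nfatc1fl/fl* libraries and 461 to 507 TPM in control libraries.

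Markers of cells that could carry CD9, CD44 or CD93 were checked as well. Of 14 macrophage and dendritic cell genes 12 were tested and none was called by edgeR, DESeq2 or limma-voom (4 had an unadjusted p under 0.05), with a median of 1.37 and summed levels of 96.3 to 414 TPM in *Rag1Cre-Nfatc1fl/fl* libraries and 41.4 to 173 TPM in control libraries. *C1qa* had 21.3, 13.2 and 80.2 CPM in *Rag1Cre-Nfatc1fl/fl* libraries, against 23.1, 6.60 and 5.70 CPM in control libraries. The endothelial genes *Cdh5*, *Kdr*, *Tek*, *Vwf* and *Emcn* were at 0.560 CPM or less in every library, while 0 of the 2 tested endothelial genes were called by any of the 3 tools (1 had an unadjusted p under 0.05) and *Pecam1*, which T cells also express, was at -0.53 (edgeR adjusted p = 0.0571). The summed level of the 7 endothelial genes was 29.6 to 53.4 TPM in *Rag1Cre-Nfatc1fl/fl* libraries and 66.8 to 71.1 TPM in control libraries.

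B cell, epithelial, red cell and platelet genes were also followed. *Cd79b* fell by 0.72 (edgeR adjusted p = 0.00654), and lost its call without any 1 library other than *Rag1Cre-Nfatc1fl/fl* replicate 3 (adjusted p = 0.0207 to 0.0357). The other tested B cell gene went the other way and was not called. Its CPM values were higher in all *Rag1Cre-Nfatc1fl/fl* libraries than in any control library, and the median log2 fold change of the 2 was 0.56. The defining genes *Ms4a1* and *Pax5* were at 0.158 CPM or less in every library, and the 7 B cell genes (2 tested) summed to 24.8 to 29.8 TPM in *Rag1Cre-Nfatc1fl/fl* libraries and 46.0 to 53.5 TPM in control libraries. *Epcam* fell by 1.20, to 8.37 CPM in *Rag1Cre-Nfatc1fl/fl* libraries, against 19.3 CPM in control libraries, while *Foxn1*, *Krt5* and *Psmb11*, which define thymic epithelium, were at 0.634 CPM or less. Those 7 epithelial genes (3 tested, 1 lower) summed to 13.1 to 18.2 TPM in *Rag1Cre-Nfatc1fl/fl* libraries and 27.1 to 32.4 TPM in control libraries. Of 7 red cell genes 4 were tested and 0 called by any of the 3 tools, with 0 at an unadjusted p under 0.05 (25.5 to 144 TPM in *Rag1Cre-Nfatc1fl/fl* libraries and 14.4 to 99.0 TPM in control libraries). Of 6 platelet genes *Itgb3* alone was tested and was not called by any of the 3 tools, at 405 CPM in *Rag1Cre-Nfatc1fl/fl* libraries and 404 CPM in control libraries, and *Pf4* was at 0.897 CPM or less in every library. The part of these cells in the differences of the 9 markers was not tested.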

How the data were processed

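RNA-seq was available from 6 libraries, grouped by the genotype in the labels. The methods state that the authors used cutadapt for trimming, STAR v2.7 for alignment to GRCm38, featureCounts for counting and DESeq2 for testing. The deposited tables hold whole-number read counts per gene (total and unique, gene, exon, junction and intron reads), in a layout other than that of featureCounts; which program wrote them was not given in the sources used. The authors' TPM and RPKM values were not used here, and TPM was recomputed from exon counts and exon lengths. The main test was that of edgeR 4.0.16 under R 4.3.3 (filterByExpr, TMM, glmQLFit and glmQLFTest with genotype as the only term, Benjamini-Hochberg). Exon and intron reads were compared by an interaction term, with the library as a term. Alternatives were RLE and upper-quartile factors, library size alone, no filter, unique or exon reads, DESeq2 1.42.0, limma-voom and limma 3.58.1 on log2(TPM + 1) or log2(TPM + 0.1), other thresholds, each library left out, and the replicate number as a block. Scripts were tested on simulated data.

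The text names the 9 markers, *Nfatc1*, from each of 17 lists up to 4 called members by adjusted p (with fewer than 2 called, also the 2 highest by mean CPM), *Nt5e*, *Ptprc* and *S1pr1*, called neighbours within 100 kb, and the 3 genes with the profile nearest to each called marker. Some list members are not reported here. Predicted genes, TCR and immunoglobulin segments were left out of the profile search. Other list members named, and the overlapping antisense genes, were chosen after their values were seen. The markers and lists were chosen with earlier results of these data known. Promoters came from RefSeq (GRCm38.p6). Figures were drawn with matplotlib 3.10.9.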

Additional observations from a re-analysis of the deposited data

How the results depend on the processing

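No marker changed direction at the gene level in any alternative. *Cd9* and *Cd24a* were called in all 19 of them and *Cd44* and *Cd69* in none. The alternatives with an adjusted p under 0.05 or without a fold threshold only loosen the main test, so they could not lose a call. With library size alone 2 markers were called higher, and *Cd5* (0.61), *Cd6* (0.47) and *Slc29a1* (0.48) lost their calls. With log2(TPM + 1) and with log2(TPM + 0.1) 1 marker was called higher and 1 lower in each, with *Cd5* at 0.55, *Cd6* at 0.41, *Cd7* at 0.60 and *Slc29a1* at 0.43 in both and *Cd93* at -1.52 and -1.67 in turn. Leaving out 1 library at a time gave 1 to 5 markers called higher and 1 to 2 lower, with log2 fold changes of 0.62 to 0.80 for *Cd5*, 0.51 to 0.66 for *Cd6*, 0.71 to 0.84 for *Cd7*, 0.52 to 0.68 for *Slc29a1* and -1.70 to -1.25 for *Cd93*. The 1316 genes called over all became 2278 at an adjusted p under 0.05, 1992 with DESeq2, 589 and 533 with TPM and 488 to 1796 with 1 library left out. In the intron test 233 calls became 374 without a filter and 122 to 232 with 1 library left out, and for exon against intron 21 became 13 to 43. The exon change minus the intron change, which did not pass for any marker, reversed in sign with 1 library left out for *Cd44* (-0.11 to 0.31), *Cd6* (-0.26 to 0.31) and *Slc29a1* (-0.036 to 0.43). Such differences rest on the few intron reads given above. Leaving out libraries was added for the lists after the data had been seen. Calls lost with 1 library left out come from 2 libraries in 1 genotype.

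Same-numbered libraries of the genotypes deviated together with correlations of 0.0258, 0.183 and 0.00547, so the numbers were not taken to pair them. With the replicate number as a block 1171 genes were called, and again 5 markers higher and 2 lower.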

Other observations

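Reads that cross an exon junction made up 37.7%, 38.3% and 34.2% of the exon reads of *Cd69* in *Rag1Cre-Nfatc1fl/fl* libraries, against 29.8%, 32.7% and 30.1% in control libraries. The other 8 markers had shares that overlapped between the genotypes. Among 9723 tested genes averaging 100 exon reads or more, the shares were higher in all *Rag1Cre-Nfatc1fl/fl* libraries than in any control library in 8.20%, and lower in 4.83%. Over all genes the share was 55.6% to 57.1% in *Rag1Cre-Nfatc1fl/fl* libraries and 51.1% to 53.2% in control libraries. *Cd93*, a gene of few exons with most of its transcript in 1 exon, had the lowest share, 3.28% ± 0.581 in *Rag1Cre-Nfatc1fl/fl* libraries and 4.43% ± 0.584 in control libraries (SD, n = 3 each), and *Cd9* the highest.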
